A study of Mus musculus with 5 samples.

Results

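The CD300 genes encode lipid-binding immunoglobulin-like receptors of myeloid cells. The 6 genes described here, Cd300a, Cd300c, Cd300e, Cd300lb, Cd300ld and Cd300lf, were found by symbol in a count table of 18051 rows, and all 6 were among the 12046 genes with enough counts to test. They were chosen by their measured difference between irradiated and untreated mice, so their differences in that comparison are given as a description, with no p-value. Thymi were pooled from C57BL/6J mice 6 to 8 weeks old, and dendritic cells were sorted on CD45, CD11c and MHC class II. The groups were mice irradiated over the whole body (total body irradiation, TBI) and harvested on day 4 (3 libraries) and untreated mice (2 libraries). The radiation dose is not given in the sources used here, and replicates are not said to be separate pools of mice, so p-values measure only the spread between these libraries.

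Each CD300 protein carries a single variable-type immunoglobulin domain outside the cell, which in several members binds phosphatidylserine, phosphatidylethanolamine or ceramide, lipids that are exposed on dying cells. CD300a and CD300lf have long cytoplasmic tails with inhibitory tyrosine motifs that recruit phosphatases. CD300lb, CD300ld and CD300e have short tails and signal through adaptors with activating motifs, DAP12 (Tyrobp) for CD300lb and CD300e and the Fc receptor gamma chain (Fcer1g) for CD300ld. The pairing of inhibitory and activating members of similar ectodomain is typical of this family, and the receptors are best known from mast cells, monocytes, macrophages, neutrophils and dendritic cells.

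The sorted label was checked first. Ptprc, which encodes CD45, had 866, 902 and 969 CPM (counts scaled to library size) in the TBI libraries, against 1007 and 986 CPM in the untreated libraries, and Itgax, which encodes CD11c, had 155, 216 and 238 CPM in TBI, against 315 and 310.0 CPM in untreated cells. MHC class II transcripts were abundant in all 5 libraries, with Cd74 between 22142 and 31982 CPM in TBI and between 27766 and 28142 CPM in untreated libraries. The class II chain genes H2-Aa and H2-Ab1 were lower in every TBI library than in either untreated library. H2-Aa had 6604, 6052 and 5208 CPM in TBI, against 8518 and 7973 CPM in untreated libraries. H2-Ab1 had 14531, 11677 and 9592 CPM in TBI, against 18046 and 18035 CPM in untreated libraries. The lineage genes of conventional dendritic cells were present but lower: Flt3, a growth factor receptor, had 34.7, 41.5 and 34.5 CPM in TBI, against 312 and 343 CPM in untreated libraries, and Zbtb46, a transcription factor, had 21.7, 20.1 and 25.6 CPM in TBI, against 55.9 and 51.2 CPM in untreated libraries. The libraries held 7549053, 8428589 and 7940442 counts in TBI and 7346330 and 7227000 counts in the untreated group, so that 1 count equals 0.119 to 0.138 CPM by total counts. TBI replicate 1 lay farther from the other TBI libraries than they did from each other, with a chi-square per gene of 23.1 and 27.6 against 9.8, where counting error alone gives about 1. Over all tested genes 13.3% rose and 9.79% fell, the shares against which the counts of each list below are read. Of 16 plasmacytoid dendritic cell markers 13 fell, and of 12 type 1 dendritic cell markers 11 fell, while 6 of 10 tested type 2 markers, 18 of 18 macrophage markers and 9 of 10 natural killer cell markers rose. Core dendritic cell genes fell in 8 of 12 cases. Of tested markers, monocyte genes rose in 4 and fell in 4 of 13, B cell genes rose in 5 and fell in 1 of 8, and T cell genes rose in 1 and fell in 6 of 11. Core dendritic cell genes that fell numbered 5 without TBI replicate 2 or either untreated library, and monocyte genes that fell numbered 2 without either untreated library; the single B cell gene that fell was lost without TBI replicate 2 or either untreated library, and the single T cell gene that rose without TBI replicate 3 or either untreated library. The same T cell gene was also not called with library size alone or with upper quartile scaling, and the same B cell gene not with the replicate number as a block. In such bulk samples fewer cells of a type and less RNA per cell cannot be told apart.

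Promoters are shown for the 3 members that hold the core of the PU.1 site, GAGGAA or its reverse complement TTCCTC. PU.1 is the myeloid ETS factor encoded by Spi1. The set includes Cd300ld and Cd300lf, which are close relatives that differed in opposite directions. Each window, from RefSeq on GRCm38.p6, runs from 250 bases before to 50 bases after the annotated start site, 5′ to 3′ on the strand of the gene, and capitals mark the core. The windows lie at chr11:114889791-114890090 on the plus strand for Cd300a, chr11:114989837-114990136 on the minus strand for Cd300ld and chr11:115133943-115134242 on the minus strand for Cd300lf.
Cd300a: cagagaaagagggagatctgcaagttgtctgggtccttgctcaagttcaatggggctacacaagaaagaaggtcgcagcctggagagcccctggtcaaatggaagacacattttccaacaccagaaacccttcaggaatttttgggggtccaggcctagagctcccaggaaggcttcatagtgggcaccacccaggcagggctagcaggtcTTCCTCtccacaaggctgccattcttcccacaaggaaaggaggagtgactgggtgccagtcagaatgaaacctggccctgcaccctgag
Cd300ld: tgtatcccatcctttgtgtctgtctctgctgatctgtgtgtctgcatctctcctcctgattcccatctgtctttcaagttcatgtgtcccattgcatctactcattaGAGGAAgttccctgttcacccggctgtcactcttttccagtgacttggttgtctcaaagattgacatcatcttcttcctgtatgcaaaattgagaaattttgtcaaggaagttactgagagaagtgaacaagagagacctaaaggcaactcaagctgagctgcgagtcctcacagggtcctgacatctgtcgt
Cd300lf: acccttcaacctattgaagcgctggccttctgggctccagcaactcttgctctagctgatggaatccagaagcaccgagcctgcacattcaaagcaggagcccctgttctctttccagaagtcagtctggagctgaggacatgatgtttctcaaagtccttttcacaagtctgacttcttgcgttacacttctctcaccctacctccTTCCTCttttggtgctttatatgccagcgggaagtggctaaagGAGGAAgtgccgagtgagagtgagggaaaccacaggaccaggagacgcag

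The core occurred in 9289 of 32851 mouse promoters of the same length (28.3%, either strand) and in 3 of the 6 members. It began at base 108 of the Cd300ld window, at base 212 of the Cd300a window and at bases 208 and 251 of the Cd300lf window, the last being the annotated start site itself. TATAAA or its reverse complement TTTATA, present in 13.6% of all promoters, began at base 221 in Cd300lb and at base 223 in Cd300lf. The C/EBP letters TTGCNNAA or TTNNGCAA (10.8% of promoters) were found in Cd300a, and the interferon response repeat (GAAA, any 2 bases, GAAA, either strand; 3.44%) in Cd300c. The ETS-IRF composite (GGAA, any 2 bases, GAAA, either strand; 2.72%) was in none of the 6 windows. Over the 15 pairs of members the aligned promoters were identical at 47.3% to 54.3% of 300 bases, with Cd300ld and Cd300lf at 52.3%, although the aligned coding sequences of this pair are 84.7% identical. The last 50 bases of the Cd300c window were not found unbroken in a GENCODE M21 transcript of Cd300c, unlike those of the other 5 windows, so what was counted in this window depends on the RefSeq start site. Without it the core was in 3 of 5 windows. These matches describe letters, not binding.

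Cd300a, an inhibitory receptor for phosphatidylserine and phosphatidylethanolamine, had 226, 238 and 279 CPM in TBI libraries, against 126 and 119 CPM in untreated libraries. All TBI libraries lay above both untreated libraries. The means were 247.8 ± 27.7 and 122.4 ± 4.53 CPM (SD, n = 3 and n = 2), a fold of 2.02 and a log2 fold change of 1.02 ± 0.15 (SE).

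Cd300lf, the inhibitory receptor also called CLM-1, which binds phosphatidylserine and ceramide and serves murine norovirus as its entry receptor, went the other way. It had 44.1, 59.2 and 60.9 CPM in TBI libraries, against 87.6 and 96.6 CPM in untreated libraries. The groups did not overlap, and TBI replicate 1 was the lowest library. The means were 54.7 ± 9.26 and 92.1 ± 6.34 CPM, a fold of 0.594 and a log2 fold change of -0.75 ± 0.18. Within each library Cd300lf counts were 0.195, 0.249 and 0.218 of Cd300a counts in TBI, against 0.697 and 0.81 in untreated cells, so the ratio of the 2 inhibitory members, which does not depend on library scaling, was lower in every TBI library.

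Cd300ld, the activating member known as CLM-5, had the largest fold of the 6. It had 239, 255 and 257 CPM in TBI libraries, against 42.7 and 32.5 CPM in untreated libraries. The TBI libraries were close to each other and far above both untreated ones. The means were 250.4 ± 9.80 and 37.6 ± 7.22 CPM, a fold of 6.66 and a log2 fold change of 2.74 ± 0.17.

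Cd300lb, also called CLM-7 or LMIR5, is an activating receptor for phosphatidylserine that can associate with TLR4 and CD14. It had 56.4, 86.2 and 101 CPM in TBI libraries, against 18.9 and 21.1 CPM in untreated libraries. TBI replicate 1 was again the lowest of its group but still above both untreated libraries. The means were 81.4 ± 22.9 and 20.0 ± 1.58 CPM, a fold of 4.07 and a log2 fold change of 2.02 ± 0.27.

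Cd300e, an activating receptor of monocytes, differed less than the activating members Cd300lb and Cd300ld. It had 84, 104 and 128 counts in TBI libraries and 62 and 38 counts in untreated libraries, or 12.1, 13.2 and 16.7 CPM against 7.65 and 4.80 CPM. The groups did not overlap, but the untreated libraries differed from each other more than for any other member in relative terms. The means were 14.0 ± 2.40 and 6.23 ± 2.01 CPM, a log2 fold change of 1.17 ± 0.32.

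Cd300c stood apart from the rest. It had 3, 12 and 15 counts in TBI libraries, against 401 and 370 counts in untreated libraries, or 0.434, 1.52 and 1.96 CPM against 49.5 and 46.8 CPM. The lowest TBI library was replicate 1, and both untreated libraries were far above all TBI libraries. The means were 1.30 ± 0.785 and 48.1 ± 1.91 CPM, a fold of 0.0271 and a log2 fold change of -5.17 ± 0.39. Ordered from the lowest log2 fold change over all 12046 genes tested, Cd300c was at rank 38. RefSeq lists Cd300c also as a synonym of the neighbouring Cd300c2, whose aligned coding sequence is 84.4% identical, so which of the 2 genes the deposited row counts is not settled, nor whether Cd300c2 has a row under another name. A further row that may be a CD300 gene is not in the annotation used here and was left out.

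**Figure D1:**
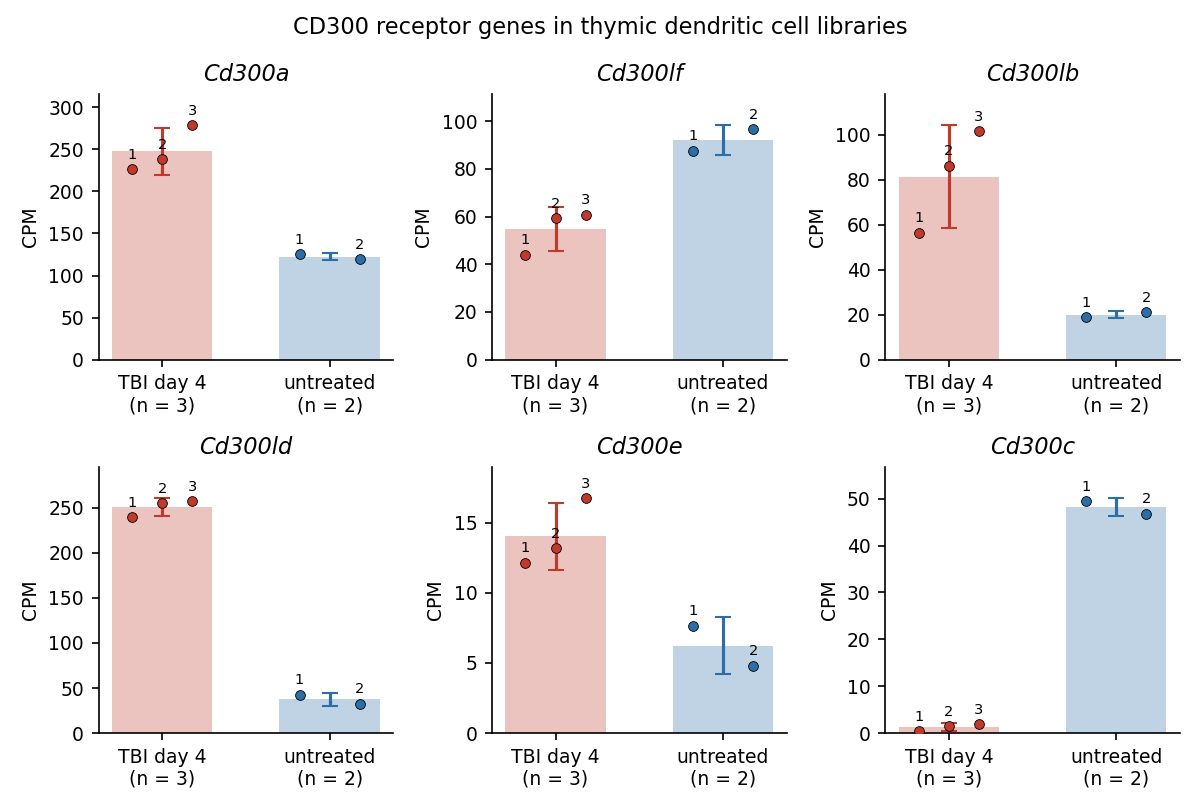
CPM of the 6 CD300 genes, each panel with its own linear axis from 0. Points are libraries numbered by replicate, bars are means and error bars are SD (TBI day 4 on the left, n = 3; untreated on the right, n = 2). No TBI library overlaps an untreated library in any panel, and the TBI libraries are lower for Cd300lf and Cd300c.

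Of the 6 genes, 4 (Cd300a, Cd300e, Cd300lb and Cd300ld) were called higher and 2 (Cd300c and Cd300lf) lower, at an edgeR adjusted threshold of 0.05. Among all tested genes, 23.1% were called, 13.3% higher and 9.79% lower, and the groups did not overlap for 56.1%. Because the members were chosen on this contrast, nothing is read from their count. The Cd300lf call was lost without untreated replicate 1 and without untreated replicate 2. Cd300e fell short of the threshold without TBI replicate 2, without TBI replicate 3 and without either untreated library, with the replicate number as a block and with scaling by library size alone.

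The table holds other rows with a CD300 name. Cd300lg, which encodes nepmucin (CLM-9), an adhesion receptor of lymph node venules and other endothelium, had 417, 509 and 436 counts in TBI libraries, against 36 and 32 counts in untreated libraries. In CPM this was 60.3, 64.4 and 56.9 in TBI, against 4.44 and 4.05 in untreated cells, and Cd300lg rose by a log2 fold change of 3.83 ± 0.22 (edgeR adjusted p = 1.30e-05). Endothelial markers are given beside it, and the source of the Cd300lg counts was not tested. Of 10 markers 6 were tested, of which 3 fell and none rose, their summed level was 35.0 to 53.7 CPM in TBI against 147.8 to 172.8 CPM in untreated libraries, and 3 had no count in any library. The markers that fell were Cdh5, which encodes VE-cadherin (-5.08 ± 0.36; adjusted p = 3.20e-05), Pecam1 (-1.44 ± 0.22; 0.00217) and Kdr (-2.89 ± 0.79; 0.0305), the last of which was not called with the DESeq2 Wald test, without TBI replicate 3 or without either untreated library; 5 markers fell without TBI replicate 1. Cdh5 was not tested under the stricter filter. Cd300lh, a synonym of Cd300ld3 in RefSeq, had 2, 1 and 1 counts in TBI and 1 and 0 counts in untreated libraries, too few to test. It shares 82.1% of its 50-base stretches with other CD300 genes, against at most 3.89% for any of the 6 members, and its count is uncertain. For Cd300c2, which the Cd300c row may count, the share is 7.16%.

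Levels of different genes can be compared only per length. Per kilobase of merged exons, the order in the TBI libraries was Cd300ld, Cd300a, Cd300lb, Cd300lf, Cd300e and Cd300c, whereas in the untreated libraries it was Cd300c, Cd300a, Cd300lf, Cd300ld, Cd300lb and Cd300e. Cd300ld had 94.7 ± 3.71 CPM per kilobase in TBI and 14.2 ± 2.73 in untreated cells, and Cd300a had 52.3 ± 5.84 and 25.8 ± 0.956. Cd300lb had 27.9 ± 7.87 in TBI and 6.86 ± 0.541 in untreated cells. Cd300lf had 10.6 ± 1.80 and 17.9 ± 1.23, Cd300e had 6.71 ± 1.15 and 2.98 ± 0.964, and Cd300c had 1.22 ± 0.737 and 45.2 ± 1.80 CPM per kilobase in TBI and untreated cells. Neighbours in either order did not overlap, but 2 pairs came close: Cd300lf and Cd300e in TBI, with a lowest Cd300lf library of 8.56 and a highest Cd300e library of 8.01, and Cd300lf and Cd300ld in untreated cells, with 17.0 and 16.1. These gaps are smaller than the SD of either gene. With the length of the longest transcript in place of merged exons, Cd300c was at 68.8 CPM per kilobase in untreated cells, and both orders were the same. The levels and shares of the Cd300c row use the length of Cd300c, with 1065 merged exon bases. Cd300c2, which the row may count instead, has 1275.

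The composition of the family therefore differed between the groups. As a share of the summed level per kilobase over the 6 genes, Cd300ld made up 52.5%, 49.3% and 45.7% in TBI libraries, against 13.9% and 11.2% in untreated libraries. Cd300c made up 0.236%, 0.73% and 0.866% in TBI, against 40.0% and 40.1% in untreated libraries. Cd300a, by contrast, held 25.7% to 27.7% in TBI and 22.8% to 22.9% in untreated libraries. Summed over Cd300lb, Cd300ld and Cd300e, the level was 129.3 ± 12.5 CPM per kilobase in TBI and 24.1 ± 3.15 in untreated cells, 5.38 times as high. The sum of the inhibitory members Cd300a and Cd300lf was 62.9 ± 7.27 and 43.7 ± 0.276, 1.44 times as high. Cd300c was classed with the activating members but is in neither sum. It had 1.22 ± 0.737 in TBI and 45.2 ± 1.80 in untreated cells. In untreated cells Cd300c alone was thus above the first sum of 24.1, and adding it would lower the ratio of 5.38 strongly. That ratio holds only for Cd300lb, Cd300ld and Cd300e, and not for the activating members as a class. The choice of members fixes part of these sums.

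**Figure D2:**
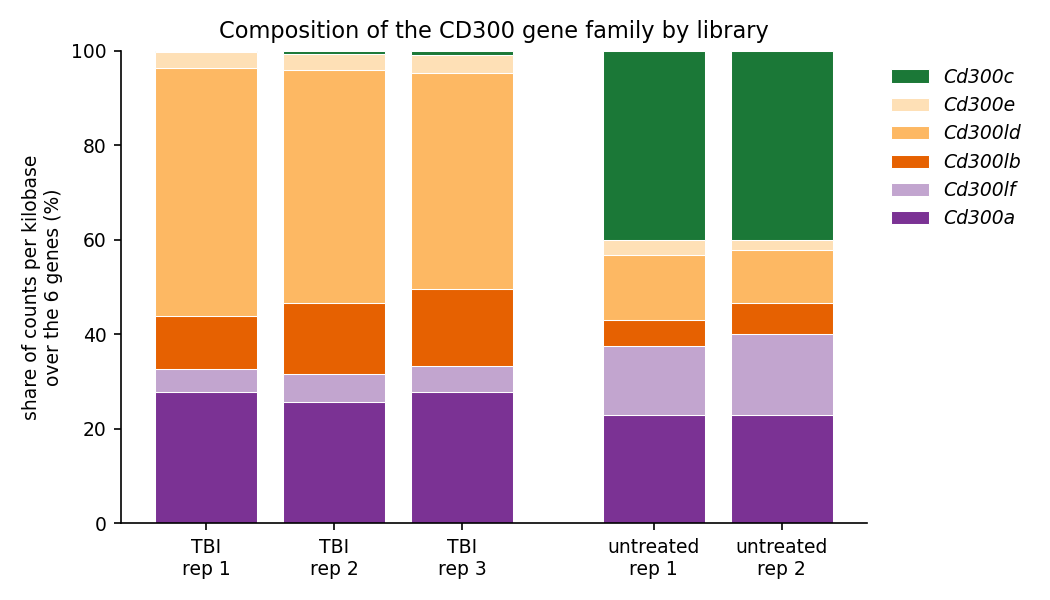
Share of each CD300 gene in the counts per kilobase summed over the 6 genes (%, vertical axis), for the 3 TBI libraries on the left and the 2 untreated libraries on the right. Cd300ld is the largest segment of the TBI bars (45.7% to 52.5%) and Cd300c the largest of the untreated bars (40.0% and 40.1%).

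The 6 members lie in a single cluster on chromosome 11 of GRCm38, the build also called mm10. In the GENCODE M21 annotation it runs from 114890041 to 115133992, 244 kb, with 11 CD300 genes, 10 of them on the minus strand and Cd300a alone on the plus strand. Cd300lg lies 12.8 Mb away at 102041509 to 102055620. In the annotation Cd300c (114956116 to 114969157), with the lowest fold, lies between Cd300lb (114922781 to 114934386) and Cd300ld (114982274 to 114989922), both higher in TBI; Cd300c2, which the row may count instead, lies at 114996721 to 115001880, between Cd300ld and Cd300e, also both higher. Cd300lf (115116214 to 115133992) lies within the span of Rab37, a Rab GTPase gene on the opposite strand, with which it shares no exonic base. Rab37 had 12.9, 16.0 and 19.1 CPM in TBI, against 16.3 and 10.5 CPM in untreated libraries, and did not pass the test (0.25 ± 0.29; adjusted p = 0.576).

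Of the 10 nearest annotated table genes beyond the cluster, 5 on each side, 8 were tested and 3 rose, while none fell, beside 13.3% higher and 9.79% lower over all tested genes. Tmem104 had a log2 fold change of 1.27 ± 0.21 (edgeR adjusted p = 0.00301), and was not called without untreated replicate 1. Slc9a3r1, which encodes the scaffold protein NHERF1, had 0.44 ± 0.13 (adjusted p = 0.0384), and this call was lost under 8 of the alternatives, among them the replicate block, library size alone and the removal of TBI replicate 2, TBI replicate 3 or either untreated library. Btbd17 had 41, 18 and 14 counts in TBI and 0 in both untreated libraries (adjusted p = 0.0105), and was not called without either untreated library.

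**Figure D3:**
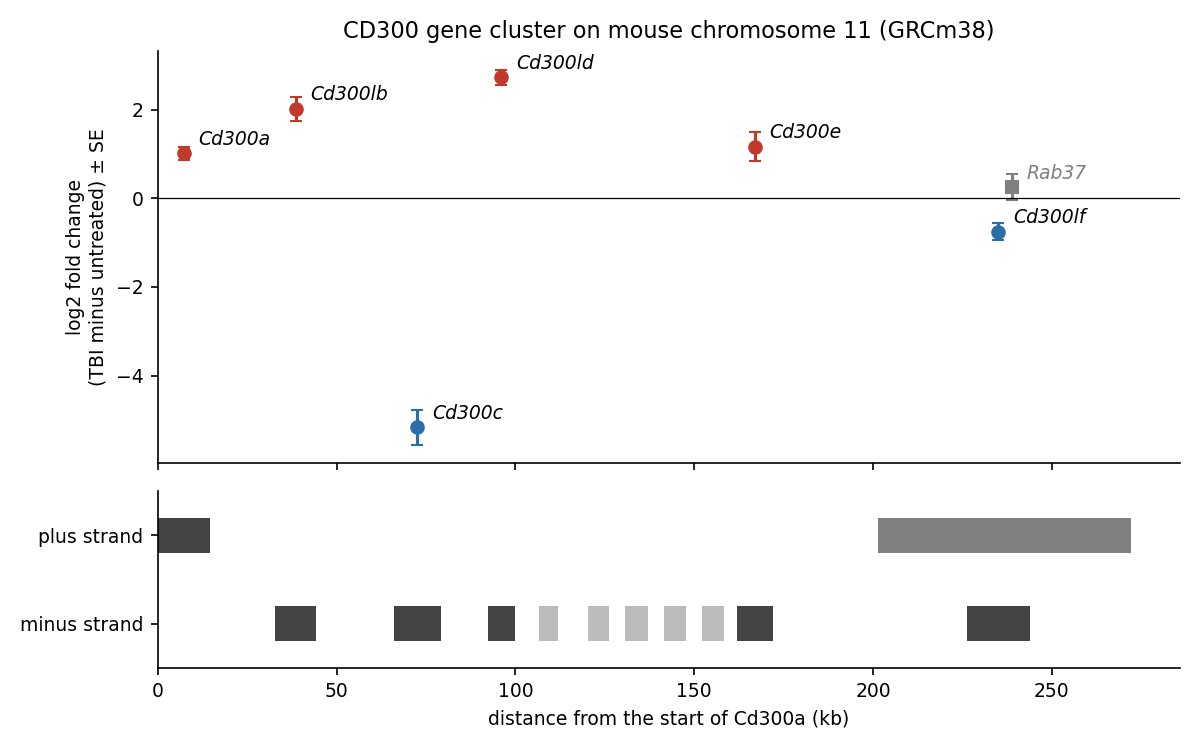
Log2 fold change, TBI minus untreated, with its SE (vertical axis, upper panel) for the 6 CD300 genes (circles, red where higher in TBI, blue where lower) and Rab37 (grey square), against the distance in kb from the start of Cd300a. The lower panel shows gene spans by strand, with the 6 members in black, other CD300 genes in light grey and Rab37 in mid grey; Cd300c at -5.17, drawn at its annotated position, sits between Cd300lb at 2.02 and Cd300ld at 2.74.

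Close relatives within the cluster differed in direction. Cd300ld and Cd300lf, which differed in opposite directions, share 84.7% of aligned coding bases and 95 stretches of 50 bases. These stretches are 3.66% of those in Cd300ld and 1.8% of those in Cd300lf. Cd300a and Cd300c, also opposite, share 76.2% of aligned coding bases and no stretch of 50 bases; for Cd300a and Cd300c2 the values are 82.2% and 91 stretches. Cd300lb and Cd300e, both higher in TBI, share 62.9%.

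Genes with the most similar profile were sought for each member among 9883 tested genes, by the root mean square distance of centred log2 CPM over the 5 libraries. With 2 groups such a distance mostly reflects the group difference. The nearest to Cd300ld was C1qc (distance 0.0245), a subunit of complement C1q, followed by Rcn3 and C1qa. C1qc had 1906, 2088 and 2088 CPM in TBI, against 335 and 265 CPM in untreated libraries. The nearest to Cd300c was Siglech (0.142), a receptor of plasmacytoid dendritic cells, which had 15.2, 45.5 and 62.0 CPM in TBI, against 1073 and 1078 CPM in untreated libraries. Among the TBI libraries alone, both Cd300c and Siglech were lowest in replicate 1 and highest in replicate 3. For Cd300c this order rests on 3, 12 and 15 counts. The nearest to Cd300lb were Rcan1 (0.0456), Dock1 and Ticam2, which encodes the TLR4 adaptor TRAM. Nearest to Cd300a were Rabgef1 (0.0305), Colgalt1 and Ppm1j, to Cd300lf Dpy19l1 (0.0311), Unc45a and Nadk2, and to Cd300e Bckdhb (0.0693), Acap3 and Slc35f2.

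Marker levels of the cells that can carry these receptors are given here. The 18 macrophage markers summed to 49391 to 53709 CPM in TBI, against 4876 to 6022 CPM in untreated libraries, beside the higher Cd300a, Cd300lb and Cd300ld. The 14 monocyte markers summed to 30808 to 36170 CPM in TBI and to 4351 to 4952 CPM in untreated libraries. The 16 plasmacytoid dendritic cell markers summed to 1862 to 1904 CPM in TBI, against 5308 to 5348 CPM in untreated libraries, beside the lower Cd300c. None of the markers in these 3 lists was at 0 in all libraries of a group. The 13 neutrophil markers in the table summed to 675 to 965 CPM in TBI and 140.4 to 522 CPM in untreated libraries, with 4 of 12 tested genes higher (2 without untreated replicate 1) and 1 lower, and 2 markers were at 0 in all TBI libraries. The lower neutrophil gene was Mpo, with 0 counts in each TBI library, against 67 and 872 counts in untreated libraries, and it was not called with limma-voom or robust shrinkage and not tested under the stricter filter. The 11 mast cell and basophil markers summed to 64.5 to 491 CPM in TBI and 217 to 289 CPM in untreated libraries, so the groups overlapped, with none of 6 tested genes higher (2 without TBI replicate 1, 1 without untreated replicate 2) and 1 lower; 2 were at 0 in all TBI libraries and 2 in all untreated libraries. The part of any of these cells in the CD300 differences was not tested.

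The activating adaptors and kinases that act below CD300lb, CD300ld and CD300e rose in 4 and fell in 2 of 16 genes tested, beside 13.3% and 9.79% of all tested genes, with a median log2 fold change of 0.21, against -0.01 over all tested genes. Fcer1g, the gamma chain that couples CD300ld, had 1177, 932 and 940.1 CPM in TBI, against 279.8 and 287 CPM in untreated libraries (1.84 ± 0.15; edgeR adjusted p = 6.77e-05). Hcst, which encodes the adaptor DAP10, rose (1.45 ± 0.22; 0.00211), as did Lcp2, the scaffold SLP-76 (0.78 ± 0.17; 0.0109), and Lat2, a linker of activated myeloid and B cells (0.58 ± 0.13; 0.0128). The Src-family kinase Fyn (-1.17 ± 0.17; 0.00141) was among those that fell. Tyrobp, the adaptor of CD300lb and CD300e, had 1463, 1134 and 1090.1 CPM in TBI, against 914 and 923 CPM in untreated libraries, higher in every TBI library but short of the threshold (0.42 ± 0.15; adjusted p = 0.0807). The list had 7 higher genes without TBI replicate 1 and 2 without untreated replicate 2, where Lcp2 and Lat2 were lost; Lat2 was also lost without untreated replicate 1 and with library size alone.

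Among the phosphatases and adaptors that inhibitory tyrosine motifs recruit, 2 rose and 2 fell of 8 genes tested, with a median log2 fold change of 0.30. Dok2, a docking protein that dampens tyrosine kinase signals, had 416, 414 and 396 CPM in TBI, against 78.9 and 70.0 CPM in untreated libraries (2.46 ± 0.14; edgeR adjusted p = 1.23e-05), and its relative Dok3 rose too (1.29 ± 0.22; 0.00394). Ptpn6, the phosphatase SHP-1 that binds CD300a and CD300lf, had 438, 424 and 454 CPM in TBI, against 600.4 and 575 CPM in untreated libraries (-0.42 ± 0.11; 0.0295). Inpp5d, the lipid phosphatase SHIP-1, had 109, 228 and 262 CPM in TBI, against 403 and 410.2 CPM in untreated libraries (-1.03 ± 0.31; 0.0437). Neither Ptpn6 nor Inpp5d was called without TBI replicate 2 or without either untreated library, Ptpn6 was not called with the replicate block, and Dok3 was not called without untreated replicate 2.

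**Figure D4:**
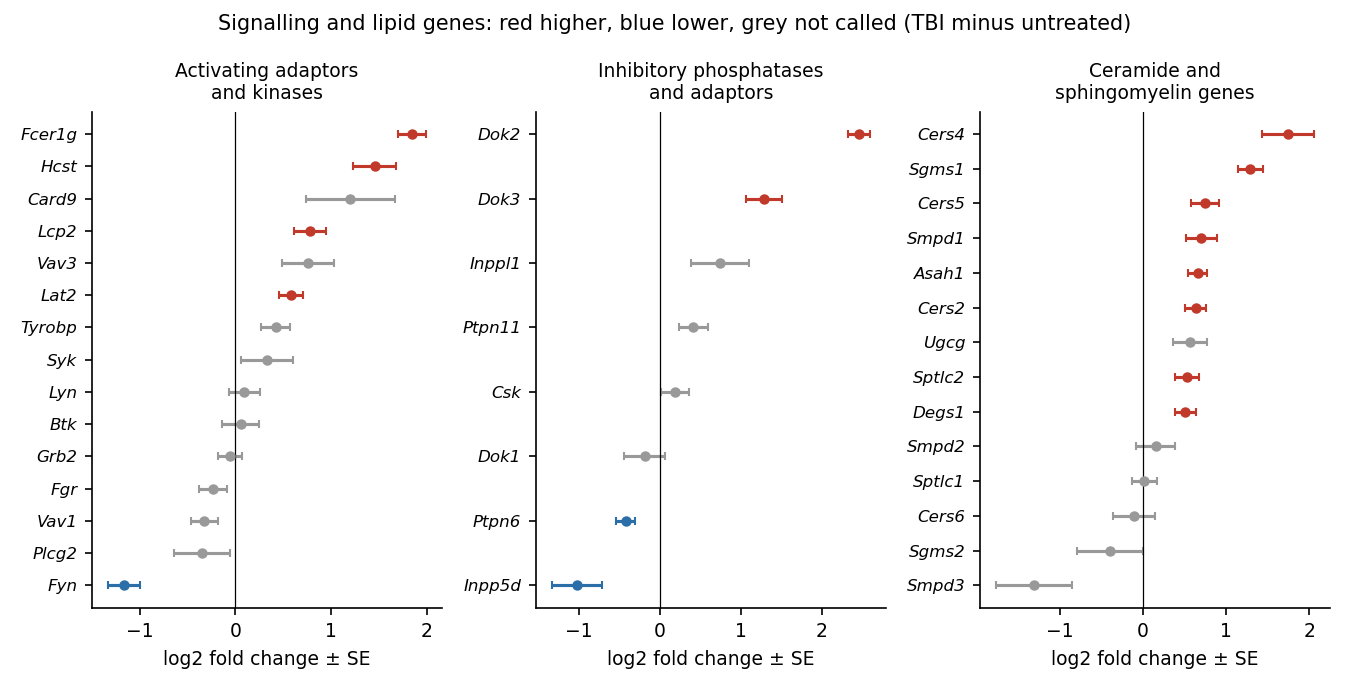
Log2 fold change, TBI minus untreated, with its SE for the tested genes of 3 lists: activating adaptors and kinases (15 genes shown), inhibitory phosphatases and adaptors (8 genes) and ceramide and sphingomyelin metabolism (14 genes). Red genes passed an adjusted p of 0.05 upward in TBI, blue ones downward and grey ones did not pass; Fcer1g (1.84) and Dok2 (2.46) lie highest in their lists.

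Phosphoinositide 3-kinase and engulfment genes, through which CD300lf is known to promote uptake of dying cells, rose in 4 and fell in 2 of 11 tested, with a median log2 fold change of 0.22. Dock1 (2.11 ± 0.33; edgeR adjusted p = 0.0024), a Rac exchange factor, Pik3r6 (1.94 ± 0.21; 0.000306), a regulatory subunit, and the GTPases Rac2 (0.70 ± 0.12; 0.00344) and Rac1 (0.62 ± 0.12; 0.00637) rose. The catalytic subunits Pik3cb (-1.79 ± 0.21; 0.000493) and Pik3cg (-0.64 ± 0.16; 0.0235) fell. Rac1 and Pik3cg were not called without either untreated library, Pik3cg also not without TBI replicate 2, and Rac2 not without untreated replicate 2.

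The lipid ligands themselves were not measured. Transcripts of their metabolic genes in the sorted cells are given instead, and they do not show the level of any lipid. Of 14 tested genes of ceramide and sphingomyelin metabolism 8 rose and none fell, with a median log2 fold change of 0.55, and with library size alone 5 rose and 1 fell. Sgms1, a sphingomyelin synthase, had 192, 216 and 199.7 CPM in TBI, against 75.2 and 90.3 CPM in untreated libraries (1.29 ± 0.15; edgeR adjusted p = 0.000438). Asah1, the acid ceramidase (0.66 ± 0.12; 0.00429), and Cers4, a ceramide synthase (1.75 ± 0.31; 0.00453), also rose. Without TBI replicate 2 there were 4 higher genes, without untreated replicate 1 there was 1 and without untreated replicate 2 there were 2; Asah1 was not called without either untreated library and Cers4 not without untreated replicate 1. Of 11 genes of phosphatidylserine exposure 1 rose and 1 fell, no larger a share than the 23.1% called over all tested genes, the scramblase Xkr8, with 10.3, 7.22 and 7.05 CPM in TBI, against 2.35 and 3.03 CPM in untreated libraries (adjusted p = 0.0211), and the flippase Atp8a1 (-0.91 ± 0.26; 0.0354). Neither was called without either untreated library, and Atp8a1 also not without TBI replicate 2 or TBI replicate 3; without TBI replicate 1 there were 2 higher genes.

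Among proteins reported to work with CD300 receptors, 7 rose and 1 fell of 10 tested, with a median log2 fold change of 1.79. Cd14, the endotoxin co-receptor that associates with CD300lb, had 3384, 3483 and 2563 CPM in TBI, against 170.7 and 196.6 CPM in untreated libraries (4.10 ± 0.19; edgeR adjusted p = 5.03e-06), and Tlr4 rose as well (2.64 ± 0.28; 0.000306). Timd4, which encodes the phosphatidylserine receptor TIM-4, had 191, 176 and 161 CPM in TBI, against 36.4 and 25.2 CPM in untreated libraries (2.51 ± 0.20; 6.10e-05), whereas its relative Havcr1 (TIM-1) had 0 counts in each TBI library, against 386 and 334 counts in untreated libraries (2.76e-05). Havcr1 was not tested under the stricter filter. Il4ra, the interleukin-4 receptor chain that CD300lf amplifies, rose (1.07 ± 0.17; 0.00247). Of 13 tested other phosphatidylserine receptors, a list that also holds Timd4 and Havcr1, 7 rose and 2 fell. Trem2 had the smallest p of those that rose (3.93 ± 0.25; 2.22e-05), and Havcr2, which encodes TIM-3, fell to 87.6, 102 and 77.3 CPM in TBI, against 279.3 and 289 CPM in untreated libraries (-1.67 ± 0.15; 0.000118).

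Other paired immunoglobulin-like and lectin receptors, in which inhibitory and activating members also stand side by side, rose in 12 and fell in 2 of 16 tested genes, with a median log2 fold change of 2.37. Lilrb4a, an inhibitory receptor, had 423, 358 and 367 CPM in TBI, against 51.3 and 43.9 CPM in untreated libraries (3.01 ± 0.16; edgeR adjusted p = 9.76e-06), and Lilr4b rose as well (2.70 ± 0.16; 1.52e-05). Treml4 (-1.40 ± 0.18; 0.000777) and Clec12a (-0.70 ± 0.15; 0.0103) fell, and Clec12a was not called without either untreated library.

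Of 19 transcription factors of the myeloid lineage 6 rose and 5 fell, with a median log2 fold change of 0.16. Spi1, whose product PU.1 recognises the core shown in capitals above, had 365, 411 and 326 CPM in TBI, against 335 and 323 CPM in untreated libraries, and did not pass the test (0.16 ± 0.14; edgeR adjusted p = 0.455). Cebpb, the myeloid factor C/EBP beta, had 1421, 1285 and 1154 CPM in TBI, against 160.3 and 169 CPM in untreated libraries (2.97 ± 0.15; 6.41e-06). Irf8, a factor of type 1 and plasmacytoid dendritic cells, had 360.4, 452 and 465.5 CPM in TBI, against 1681 and 1756 CPM in untreated libraries (-2.01 ± 0.14; 2.88e-05). Tcf4 (-1.84 ± 0.16; 9.61e-05) and Spib (-3.42 ± 0.35; 0.000257), both factors of plasmacytoid dendritic cells, fell, as did Runx3 (-0.97 ± 0.19; 0.008). Runx3 was not called without either untreated library. The factors that fell numbered 3 without untreated replicate 1, and those that rose numbered 3 without untreated replicate 1 and 2 without untreated replicate 2.

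The members' log2 fold changes kept their sign under every setting tried. Cd300c ranged from -5.60 to -4.78 and Cd300ld from 2.51 to 2.95, whereas Cd300e ranged from 0.87 to 1.54.

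**Figure D5:**
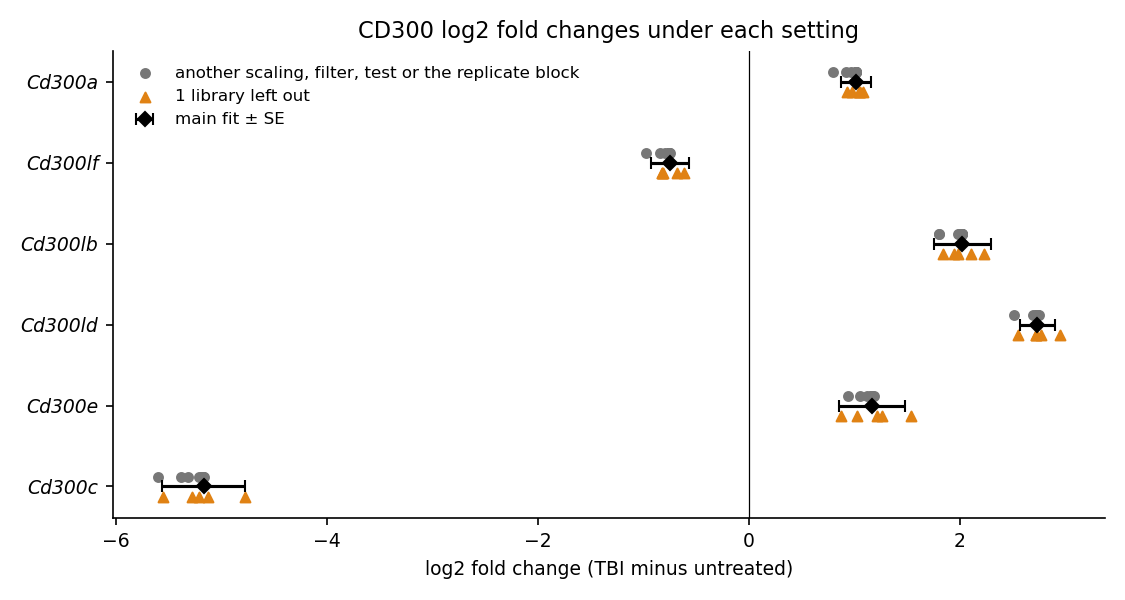
Log2 fold change, TBI minus untreated, of the 6 CD300 genes under each setting: black diamonds with SE are the reported values, grey circles another scaling, filter, test or the replicate block, and orange triangles the fits with 1 library left out. No point of any gene lies across 0, and Cd300e spreads most relative to its own size (0.87 to 1.54).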

How the data were processed

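RNA of sorted mouse thymic dendritic cells was sequenced after amplification with the SMART-Seq v4 kit, which adds no molecular identifiers. The submitters' processing notes name STAR 2.5.2a with mm10 for alignment and featureCounts 1.6.0 of Subread for counting. The table deposited by the authors holds raw counts, 1 row per symbol. The annotation, the strand setting and the treatment of multiply mapped reads are not given in the sources used here, so near-identical or overlapping genes may share reads. The treatment note names the samples by another day than 4, while titles and tags give day 4, which was used.

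All 5 libraries entered 1 edgeR 4.0.16 fit (R 4.3.3), with the quasi-likelihood F-test after TMM scaling. Genes were kept by filterByExpr with a minimum count of 10 and a minimum total of 15. A kept gene needs the CPM of 10 counts at median depth in as many libraries as the smaller group holds. A gene with no count in 1 group could thus be tested. Benjamini-Hochberg adjustment ran over 12046 of 18051 genes at 0.05, and 1476 rows had no count. The group was the only term. CPM use TMM-scaled library sizes, log2 profiles a prior count of 2. Values in parentheses after a gene are its log2 fold change (TBI minus untreated) ± SE and its edgeR adjusted p. Each SE, also those of the members, was derived from the test, as the absolute log2 fold change divided by the square root of F. Levels per kilobase use merged GENCODE M21 exons. The fit was tested on simulated data with 200 changed genes. Figures used matplotlib 3.10.9 (Python 3.11.15).

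The members and the 21 gene lists were chosen with earlier results of these data known. Genes named from a list were up to 3 called members with the smallest p, and all called in a direction with 5 or fewer; Tyrobp, Spi1, Tlr4 and Il4ra were singled out after their values were seen. Some list members are counted but not reported here by name. Alternatives were DESeq2 1.42.0 (size factors and Wald test), library size alone, upper quartile scaling, a fit with no filter and one with a stricter filter (1 CPM in 3 libraries, total 100), limma-voom (limma 3.58.1), robust shrinkage, a block for the replicate number, and leaving out each library. A fit with 1 untreated library assumes that it varies as TBI libraries do.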

Additional observations from a re-analysis of the deposited data

How the results depend on the processing

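With library size alone Cd300e was at 0.94, with 2129 genes of the whole table lower and the median of all tested genes at -0.23, and Spi1, not called in either fit, at -0.069. Replicate numbers were shared between the groups. The deviations of same-numbered libraries from their group means had correlations of -0.016 and -0.01. With 2 untreated libraries these deviations are equal and opposite in that group, so the check cannot decide whether the numbers pair the samples. With the replicate number as a block Cd300e was at 1.05, short of the threshold. With each library left out, Cd300e ran from 0.87 to 1.54 and Cd300lf from -0.83 to -0.62, the members called lower numbered 1 to 2, the genes of the signalling, ligand and receptor lists numbered 28 to 52 higher and 6 to 12 lower, and those of the whole table ran from 810 to 2148 higher and from 423 to 1780 lower. Rab37, not called, ran from -0.028 without untreated replicate 2 to 0.61 without untreated replicate 1. With the longest transcript as length, Cd300c was at 68.8 CPM per kilobase in untreated cells, and Cd300lf at 13.9 in TBI and 23.4 in untreated cells. The depth limits Cd300c in TBI, where 3 to 15 counts were seen. Groups of 3 and 2 libraries are too small to test for outlying libraries.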
